A study of Arabidopsis thaliana with 6 samples.

Results

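Proton pumps of the plasma membrane and the vacuole were followed in dark-grown Arabidopsis seedlings treated with the ionophore lasalocid sodium (LS). The set held 10 loci, chosen by locus name among the 29030 loci named on the array: the plasma membrane H+-ATPases AHA1 (AT2G18960), AHA2 (AT4G30190), AHA3 (AT5G57350), AHA4 (AT3G47950), AHA5 (AT2G24520), AHA7 (AT3G60330), AHA10 (AT1G17260) and AHA11 (AT5G62670), the vacuolar H+-pyrophosphatase AVP1 (AT1G15690), and VHA-A (AT1G78900), subunit A of the vacuolar H+-ATPase. Together they had 18 probes of the 43603 on the array, each printed as 1 spot. Total RNA came from whole wild-type Col-0 seedlings that were 3 days old when they were moved to liquid MS medium with sucrose, and all were then kept in the dark for 24 h. The control group (3 samples) received no LS and the LS group (3 samples) received 1 μM LS, and nothing else differed between them in the labels. Each sample was hybridised to its own single-colour Agilent array. LS, a polyether antibiotic, carries monovalent and divalent cations across membranes, and the comparison asks which pump transcripts differed in abundance after 24 h of exposure.

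Plasma membrane H+-ATPases use ATP to export protons, and the resulting gradient drives nutrient uptake and acidifies the cell wall, a step in cell elongation. Their C-terminal domain holds the pump inactive until a threonine near its end is phosphorylated and bound by a 14-3-3 protein. On endomembranes, the multi-subunit V-ATPase and the single-chain H+-pyrophosphatase pump protons into the vacuole lumen, and the pyrophosphatase also removes the pyrophosphate that biosynthesis releases. Much of this regulation acts on the protein, which an array does not measure.

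Levels below are log2 values of the processed signal minus the 75th percentile of the same array, so 0 is the level of that percentile. Probes entered the tests if, in 1 group or both, all 3 arrays read them well above background. A change is the LS mean minus the control mean, and a probe was called when limma gave a Benjamini-Hochberg adjusted p under 0.05 over all 32352 tested probes and the fold was at least 1.5 (0.58 on the log2 scale). Probes differ in how brightly they report a transcript, so levels are compared between arrays and not between genes. Per array, 72.6% to 77.0% of all spots passed that background limit and 0 were saturated. One slide carried the controls and LS array 1, while the other carried LS arrays 2 and 3, so slide and group partly overlap. LS array 3 stood apart in brightness, with a 75th percentile of 2123 against 1067 to 1500 on the other arrays, and its spike-in controls lay 1.64 above that percentile against 2.63 to 3.25. Of 6 root markers 1, PHT1;4, was called higher, beside 3.18% of all tested genes. The summed linear level of the 6 was 1.38 to 2.55 on control arrays and 3.42 to 3.85 on LS arrays. The markers did not move alike. PHT1;4, EXPA7 and COBL9 lay higher on all LS arrays, while PIN2 (-0.26), LRX1 (-0.31) and PRP3 (0.14) overlapped between groups. All 4 dark-seedling markers, PORA and PHYA among them, were well above background on every array, with a summed level of 94.0 to 100.2 in the control group and 69.1 to 98.7 in the LS group. The seed coat markers BAN, TT2, TT12 and TT8 were not well above background on any array.

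None of the 9 tested pump genes was called higher or lower in LS-treated seedlings. With limma, 0 of the 9 passed, while 3.18% of all tested genes were called higher and 2.19% lower. Of their 16 tested probes 0 passed, beside 2.6% of all tested probes higher and 2.45% lower. At an unadjusted limma p under 0.05 there were 2 pump genes, AHA7 above and AHA5 below the controls, beside 12.9% of all genes higher and 13.1% lower. The methods' t-test (Welch) gave 1 pump gene, AHA5, at an unadjusted p under 0.05 (0.0431), but its fold lay just under the threshold. With the fold threshold too, that unadjusted test called 0 pump genes, beside 1517 of 32352 tested probes higher and 1632 lower. After adjustment it gave 0 pump genes, but only 1 of all tested probes was called, so that 0 does not set the pumps apart. At the brightest probe of each gene, all LS arrays lay above all control arrays for 3 of the 9 genes (AHA1, AHA4 and AHA7) and below them for 1 (AHA5). These patterns held for 17.5% and 17.7% of all tested genes. By probe they held for 4 and 1 of the 16, against 15% and 18.4% of all tested probes. The brightest probe was picked by its mean over all 6 arrays, LS arrays included. The place of AHA1 in the count rests on that pick, because its probe A_84_P811056, slightly brighter in the controls, overlapped between groups. The median change of the 9 genes was 0.29 on the log2 scale, with 6 of 9 above 0, and over all 21821 tested genes it was -0.03, with 10246 above 0. Spike-in scaling moved the median of all tested probes to 0.50, and under it 8 of 9 pump genes lay above 0 and 6 above that median. Because this scaling shifts whole arrays, the count above the median had to equal that of the main scaling (6) and adds nothing to it.

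**Figure D1:**
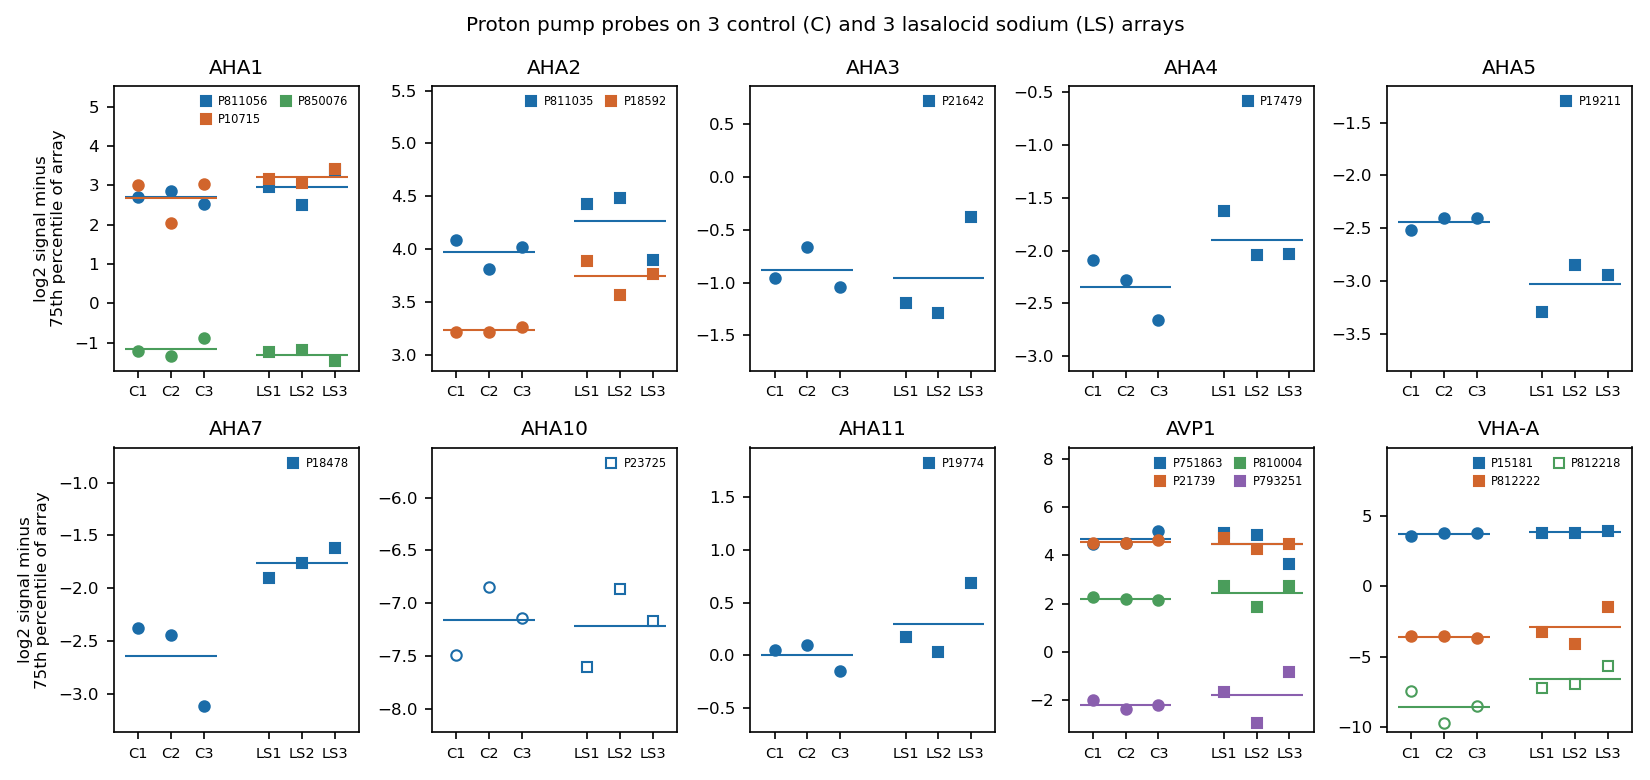
Each panel shows 1 pump gene, with the log2 signal minus the array's 75th percentile on the y axis (its range differs between panels) and the 3 control arrays (C1 to C3, circles) and 3 LS arrays (LS1 to LS3, squares) on the x axis. Colours mark probes, lines mark group means and open symbols mark untested probes. The groups are apart for AHA4, AHA5 and AHA7 and overlap for AHA3, AHA11, AVP1 and the tested VHA-A probes.

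AHA7, a plasma membrane pump known for its part in root hair formation, had the largest change among the 9 tested pump genes. Its log2 level was -2.37, -2.45 and -3.12 in controls 1 to 3 and -1.91, -1.76 and -1.62 in LS samples 1 to 3. Every LS array lay above every control array, and control array 3 was the lowest of all 6. The change was 0.88 on the log2 scale, a 1.85-fold higher level, with a standard error of 0.23, a 95% confidence interval of 0.35 to 1.42 and a limma adjusted p of 0.0685 (unadjusted 0.00556). Within the slide that held the controls and LS array 1 the change was 0.74, and without control array 3 it was 0.65. With a normexp background correction on the median signal, AHA7 was called, with a change of 0.76 and a limma adjusted p of 0.0370, and over the 23 alternatives the adjusted p ran from 0.0370 to 0.352. The root hair genes EXPA7 and COBL9 of the root marker list lay higher on all LS arrays too, as did 17.5% of all tested genes. EXPA7 and COBL9 had changes of 1.73 and 1.64 and limma adjusted p-values of 0.0653 and 0.0893. For both, as for AHA7, control array 3 was the lowest array. The other root hair genes of that list, PRP3 and LRX1, had changes of 0.14 and -0.31 and overlapping groups, as did the root gene PIN2 at -0.26. The part of these markers in the AHA7 value was not tested, and in whole seedlings more cells of a type and more RNA per cell cannot be told apart.

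AHA5, a less studied isoform of the same pump family, went the other way. Its level was -2.52, -2.41 and -2.41 in controls 1 to 3 and -3.30, -2.84 and -2.94 in LS samples 1 to 3. The controls spanned a narrow range and all LS arrays lay below it. The change was -0.58, with a standard error of 0.17 and a 95% confidence interval of -0.99 to -0.18, and the limma adjusted p was 0.0929 (unadjusted 0.0109). Its fold therefore lay just under the threshold. With spike-in scaling the change was -0.041. The change was -0.85 within the slide that held the controls and LS array 1, and it ran from -0.68 to -0.45 when each array was left out in turn.

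AHA2, the main proton pump of root cells, had a pair of tested probes. On probe A_84_P18592 the level was 3.21, 3.21 and 3.26 in controls 1 to 3 and 3.89, 3.57 and 3.77 in LS samples 1 to 3. The controls nearly coincided and every LS array lay above them, with a change of 0.51 (standard error 0.16, 95% confidence interval 0.15 to 0.87). The limma adjusted p was 0.0965. On the brighter probe A_84_P811035 the level was 4.09, 3.81 and 4.02 in the control group and 4.43, 4.48 and 3.90 in the LS group. Here LS arrays 1 and 2 were high and LS array 3 fell among the controls. The change was 0.29 with a 95% confidence interval of -0.18 to 0.77 and a limma adjusted p of 0.400. Without LS array 3 it was 0.48, with an adjusted p of 0.123.

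AHA1, the other abundant isoform, which opens stomata when activated in guard cells, gave 3 probes that did not move alike. On the brightest, A_84_P10715, control arrays 1 to 3 were at 3.01, 2.04 and 3.03 and LS arrays 1 to 3 at 3.17, 3.07 and 3.41. The groups did not overlap, but the gap between control arrays 1 and 3 and the LS arrays was small and control array 2 stood low. The change was 0.53 (95% confidence interval -0.14 to 1.19, limma adjusted p 0.293), and it was 0.20 without control array 2. On the other 2 probes the groups overlapped, and A_84_P811056 was about as bright in the controls (mean 2.70 against 2.69). Probe A_84_P811056 had a change of 0.25 and probe A_84_P850076 one of -0.15, with limma adjusted p-values of 0.542 and 0.637, and control array 2 was not low on the first of them, at 2.85 against 2.71 and 2.54. The summed level of 4 guard cell markers, among them MYB60 and KAT1, was 0.296 to 0.310 on control arrays and 0.214 to 0.330 on LS arrays.

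AHA4, a pump of the root endodermis linked to salt tolerance, was at -2.09, -2.28 and -2.66 in controls 1 to 3 and at -1.62, -2.04 and -2.03 in LS samples 1 to 3. The LS arrays all lay above the controls, though LS arrays 2 and 3 were close to control array 1. The change of 0.44 had a 95% confidence interval of -0.05 to 0.93 and a limma adjusted p of 0.236, and it was 0.086 with the normexp correction. AHA11, a broadly expressed isoform, was at 0.05, 0.09 and -0.15 in the control group and at 0.18, 0.03 and 0.68 in the LS group. The groups overlapped and LS array 3 was the highest, with a change of 0.30 (limma adjusted p 0.409) that was 0.10 without that array.

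AHA3, the pump of phloem companion cells, where it drives sucrose loading, was at -0.95, -0.66 and -1.04 in controls 1 to 3 and at -1.20, -1.29 and -0.38 in LS samples 1 to 3. LS arrays 1 and 2 lay below all controls and LS array 3 above them. The change was -0.07 with a 95% confidence interval of -0.69 to 0.55 and a limma adjusted p of 0.886. Of 5 phloem markers 0 were called, beside 3.18% of all tested genes higher and 2.19% lower. Their summed level was 5.80 to 6.50 on control arrays and 4.70 to 6.03 on LS arrays. On their brightest probes the companion cell genes SUC2, a sucrose transporter, and NAKR1 lay lower on all LS arrays. The changes were -0.63 and -0.93, with limma unadjusted p-values of 0.0117 and 0.0257. A fainter probe of each, SUC2 A_84_P800839 (-0.56) and NAKR1 A_84_P167273 (-0.19), overlapped between groups, and the remaining probe of each lay lower on all LS arrays. Of the other 3 phloem markers, SWEET12 lay higher on all LS arrays, with a change of 0.55 and an unadjusted limma p of 0.0144, and SWEET11 and APL overlapped between groups. Among all tested genes, 17.7% lay lower and 17.5% higher on all LS arrays. An unadjusted limma p under 0.05 was reached by 13.1% lower and 12.9% higher. AHA10, known for acidifying the vacuoles of the seed coat, where pigment precursors accumulate, was well above background on control array 2 and LS arrays 2 and 3 only and was not tested. Its level was -7.49, -6.85 and -7.14 in the control group and -7.61, -6.86 and -7.17 in the LS group, so the groups overlapped.

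**Figure D2:**
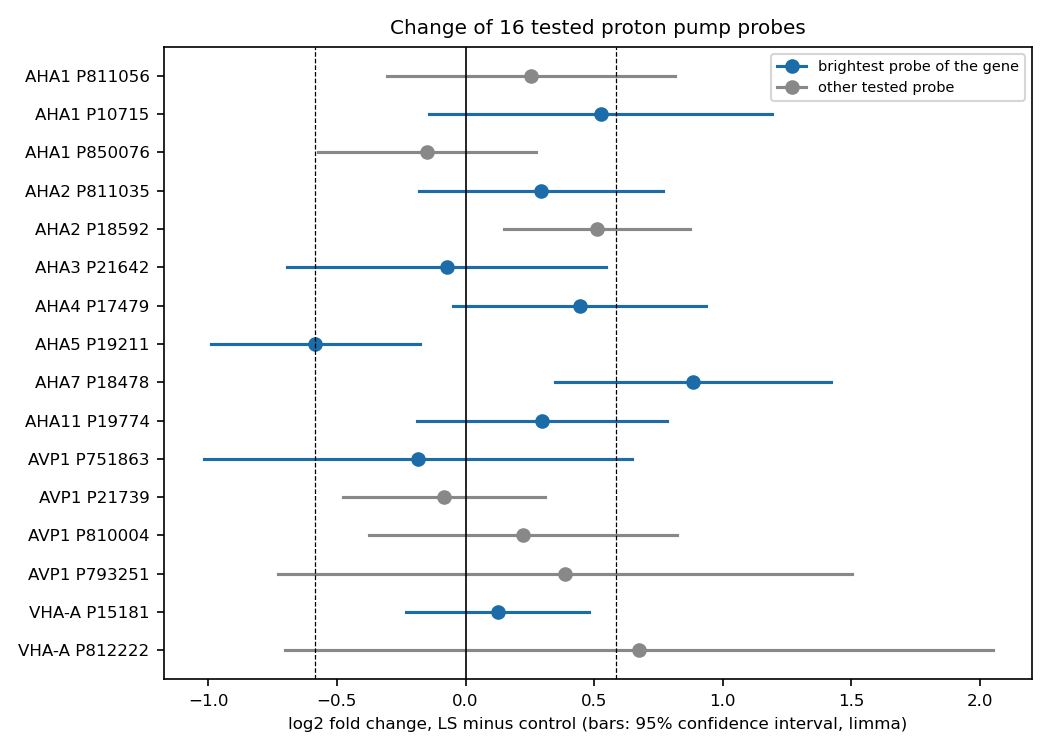
Change of the 16 tested pump probes, LS minus control on the log2 scale (x axis), with points for limma estimates and bars for 95% confidence intervals. Dashed lines mark the fold threshold of 1.5. The intervals of AHA7, AHA5 and AHA2 probe P18592 leave out 0 and those of the other 13 probes include it.

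AVP1, the vacuolar H+-pyrophosphatase, needed for seedling growth on stored reserves because it clears pyrophosphate, was read by 4 probes. Probes A_84_P751863 and A_84_P21739 are named by the array design for transcript model 1, and A_84_P810004 and A_84_P793251 for transcript model 2. On A_84_P751863, the brightest, control arrays 1 to 3 were at 4.46, 4.52 and 5.02 and LS arrays 1 to 3 at 4.92, 4.86 and 3.65. LS array 3 was far below the rest, and the other 5 arrays overlapped. The change was -0.19 (95% confidence interval -1.02 to 0.65, limma adjusted p 0.777), and without LS array 3 it turned to 0.23. On A_84_P21739 the values were 4.53, 4.54 and 4.65 in the control group and 4.71, 4.28 and 4.47 in the LS group, a change of -0.08 with a limma adjusted p of 0.786. LS array 3 was not apart on that probe.

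The probes of model 2 ordered the LS arrays differently. A_84_P810004 was at 2.30, 2.19 and 2.15 in controls 1 to 3 and at 2.72, 1.86 and 2.74 in LS samples 1 to 3. A_84_P793251 was at -1.99, -2.34 and -2.21 in the control group and at -1.64, -2.93 and -0.81 in the LS group. On both, LS array 2 lay below all controls and LS arrays 1 and 3 above them. The changes were 0.22 and 0.39, with limma adjusted p-values of 0.620 and 0.647, and without LS array 3 the second turned to -0.10.

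VHA-A, the catalytic subunit of the V-ATPase head, which binds and splits ATP, was even across arrays on its brightest probe, A_84_P15181, named for model 1. Control arrays 1 to 3 were at 3.58, 3.83 and 3.77 and LS arrays 1 to 3 at 3.82, 3.79 and 3.94. The groups overlapped, and the change was 0.13 with a 95% confidence interval of -0.23 to 0.48 and a limma adjusted p of 0.643, the narrowest interval of the 16 tested probes. Probe A_84_P812222, named for model 2, was at -3.55, -3.53 and -3.71 in the control group and at -3.22, -4.11 and -1.45 in the LS group. Its controls lay close together and its LS arrays spread widely, with LS array 3 highest and LS array 2 lowest of all 6. The change was 0.67 with a 95% confidence interval of -0.70 to 2.05 and a limma adjusted p of 0.508, and without LS array 3 it turned to -0.066.

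The order seen on the 3 tested model 2 probes of AVP1 and VHA-A, with LS array 2 lowest and LS array 3 highest of the LS arrays, was also more frequent among model 2 or higher probes at large. Over 1960 tested probes named for such models it held for 34.9%, against 22.0% of 27669 probes named for model 1. For the former, the median deviation from the control mean was -0.18 on LS array 2 and 0.11 on LS array 3, and for the latter it was -0.04 and 0.02. The same order also held on some model 1 pump probes, namely VHA-A probe A_84_P15181, AHA1 probes A_84_P10715 and A_84_P811056, and the probes of AHA3 and AHA11. It is therefore not particular to the model 2 probes of the pumps. What the model 2 or higher probes share was not tested.

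**Figure D3:**
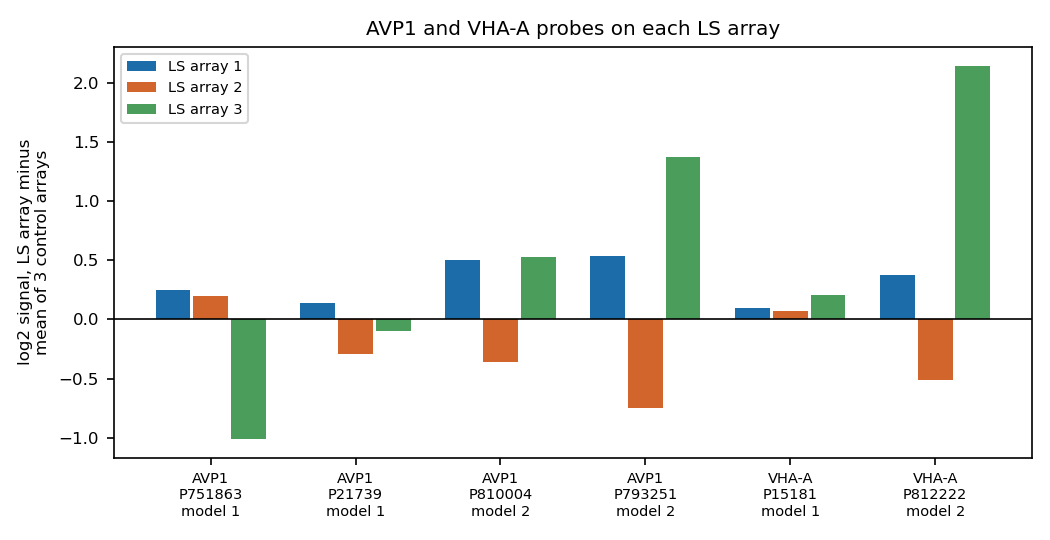
Log2 signal of each LS array minus the mean of the 3 control arrays (y axis) for the 6 tested AVP1 and VHA-A probes (x axis, with the transcript model the array design names), bars coloured by LS array. LS array 2 is below 0 and LS array 3 above it on the 3 model 2 probes, while on AVP1 probe P751863 LS array 3 is at -1.01.

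The genes whose level followed a pump most closely over the 6 arrays were found by Pearson correlation among 21657 loci, as a description of these arrays only. For AHA2 they were AT3G10760 (r = 0.996), LCR73 (0.995) and AT5G35730 (0.994). For AVP1 they were AT5G06450 (0.996), HB52 (0.994) and AT3G03990 (0.994). For VHA-A they were ATG18B (0.993), SNRK2-8 (0.991) and AT5G35430 (0.982). None of these 9 genes was called by limma, and their changes ran from -0.16 to 0.46. The points share their 6 arrays and the scaling.

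The remaining isoforms of both pump types gave 0 calls as well. AHA6, AHA8 and AHA9 are pumps known mainly from pollen. AHA6 was not well above background on any array, while AHA8 had a change of -0.41 and AHA9 one of -0.76, with limma adjusted p-values of 0.279 and 0.228 and overlapping groups. AHA9 was well above background on 2 of the 3 LS arrays. AVP2, a pyrophosphatase of the Golgi, had a change of 0.25, and its relative AVPL2 one of -0.09 (limma adjusted p 0.354 and 0.764).

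Among 26 tested V-ATPase subunits besides VHA-A, 1 was called lower and 0 higher, beside 2.19% and 3.18% of all tested genes. On all LS arrays 3 of the 26 lay below and 2 above the controls, against 17.7% and 17.5% of all tested genes, and the median change was -0.06. In the V1 head and stalk, 1 of 12 tested subunits was called. VHA-G3, an isoform of the stalk subunit G, was at -2.06, -2.40 and -1.93 in controls 1 to 3 and at -3.26, -4.42 and -4.98 in LS samples 1 to 3. All LS arrays lay far below the controls, and it fell by 2.09 on the log2 scale (standard error 0.41, limma adjusted p 0.0369). The call held under 12 of 23 alternatives. It was lost within the first slide, where the change was -1.13, and when any array other than LS array 1 was left out. The other 11 tested V1 subunits ran from -0.24 for VHA-F to 0.24 for VHA-E1, which braces the stalk, and VHA-E2 was not well above background.

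In the membrane sector VO, which forms the proton path, 0 of 14 subunits were called by limma, and 3 had an unadjusted p under 0.05 (2 higher and 1 lower, beside 12.9% and 13.1% of all tested genes). VHA-a1, the isoform that places the enzyme in the trans-Golgi network and early endosomes, was at -0.27, -0.14 and -0.34 in controls 1 to 3 and at 0.52, 0.42 and 0.30 in LS samples 1 to 3. The groups were well apart, with a change of 0.67 (standard error 0.15), an unadjusted limma p of 0.00273 and an adjusted p of 0.0514, and it was called under 5 of 23 alternatives. The tonoplast isoforms VHA-a2 and VHA-a3, named after their values were seen, had changes of -0.07 and -0.04 and overlapping groups. Whether VHA-a1 differed from them in its change was not tested. The lowest was VHA-e2, at -0.50 (limma adjusted p 0.242). Of the genes for the proteolipid ring, VHA-c1 had a change of -0.43 and VHA-c5 one of 0.49. These 2, also named after their values were seen, had no overlap between groups at their brightest probes, nor had VHA-e2. A fainter VHA-c1 probe, A_84_P16719 (-0.36), overlapped. The other ring genes ran from -0.42 to 0.54 and overlapped at their brightest probes. Of all tested genes, 17.7% lay below and 17.5% above the controls on all LS arrays.

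Regulators of the plasma membrane pump held 6 of the 7 called related genes, all of them from the SAUR family. Of 12 tested activators, 6 were called lower and 0 higher, against 2.19% and 3.18% of all genes. All 6 were SAUR19 to SAUR24, small auxin-induced proteins that block the PP2C-D phosphatases and so keep the pump phosphorylated. The activators outside the SAUR family ran from -0.05 to 0.52 at their brightest probes. The median change of the list, -0.65, falls in the gap between them and the SAUR genes and describes neither. SAUR19 was at 2.07, 2.73 and 2.85 in controls 1 to 3 and at 1.12, 1.40 and 0.75 in LS samples 1 to 3. It fell by 1.45 on the log2 scale (standard error 0.26, limma adjusted p 0.0316). SAUR21 was at 1.63, 2.44 and 2.51 in the control group and at 0.60, 0.98 and 0.21 in the LS group, and it fell by 1.60 (standard error 0.30, limma adjusted p 0.0334). In both genes control array 1 was the lowest control and still lay above every LS array. SAUR20, SAUR22, SAUR23 and SAUR24 fell by 1.54, 1.29, 1.24 and 1.39, with limma adjusted p-values of 0.0425 to 0.0478. These 6 genes are near-identical copies of one another, so a probe may read more than 1 of them and they are not 6 independent results.

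Within the slide that held the controls and LS array 1, the changes of the 6 SAUR genes were -1.95 to -1.21. Each was called under 11 to 13 of 23 alternatives, and all 6 calls were lost without control array 2, control array 3, LS array 1 or LS array 3 and 4 of the 6 without control array 1. The receptor kinase BRI1, which responds to brassinosteroids, had a change of 0.37 on its brightest probe (limma adjusted p 0.389), yet 2 fainter BRI1 probes were called lower, 1 with a change of -0.97 and 1 that no LS array read well above background. At the other end of the list was PSY1R, a receptor for a wound and growth peptide, with a change of 0.52 (limma adjusted p 0.288).

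Of 12 inhibitors, among them 9 PP2C-D phosphatases, the kinase PKS5, the receptor FER and its ligand RALF1, 0 were called by limma. Of the same 12, 0 had an unadjusted limma p under 0.05, beside 12.9% of all tested genes higher and 13.1% lower. They ran from -0.47 for RALF1 to 0.18 for PP2C-D9, with a median of -0.09. At the brightest probe PP2C-D9 was the only 1 of the 12 whose groups did not overlap. Over all tested genes, 17.5% had all LS arrays above the controls and 17.7% below. On a fainter FER probe, A_84_P862376, all LS arrays lay below the controls, with a change of -0.78 (unadjusted limma p 0.123). RALF1 was at 0.80 on LS array 3 against 2.07 to 2.77 on the other 5 arrays, and without that array its change turned to 0.070. Of 12 14-3-3 proteins 11 were tested, and at the brightest probe 0 were called and 0 had an unadjusted limma p under 0.05. They ran from -0.34 for GRF2 to 0.19 for GRF7, with a median of 0.03. GRF2 was the only 1 of the 11 without overlap, against those 17.5% and 17.7%. Fainter probes of GRF2 (A_84_P849044, -0.64) and GRF6 (A_84_P855811, -0.42) lay lower on all LS arrays, with unadjusted limma p-values of 0.0245 and 0.0351. Neither was called, and no 14-3-3 probe had a p under 0.05 with a higher level. Over all 68 related genes, 65 were tested, 7 were called lower and 0 higher, beside 2.19% and 3.18% of all tested genes. The near-identical SAUR copies made up 6 of the 7, and 0 were called with spike-in scaling, without the filter on dim probes, or with the replicate number or the slide as a block.

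**Figure D4:**
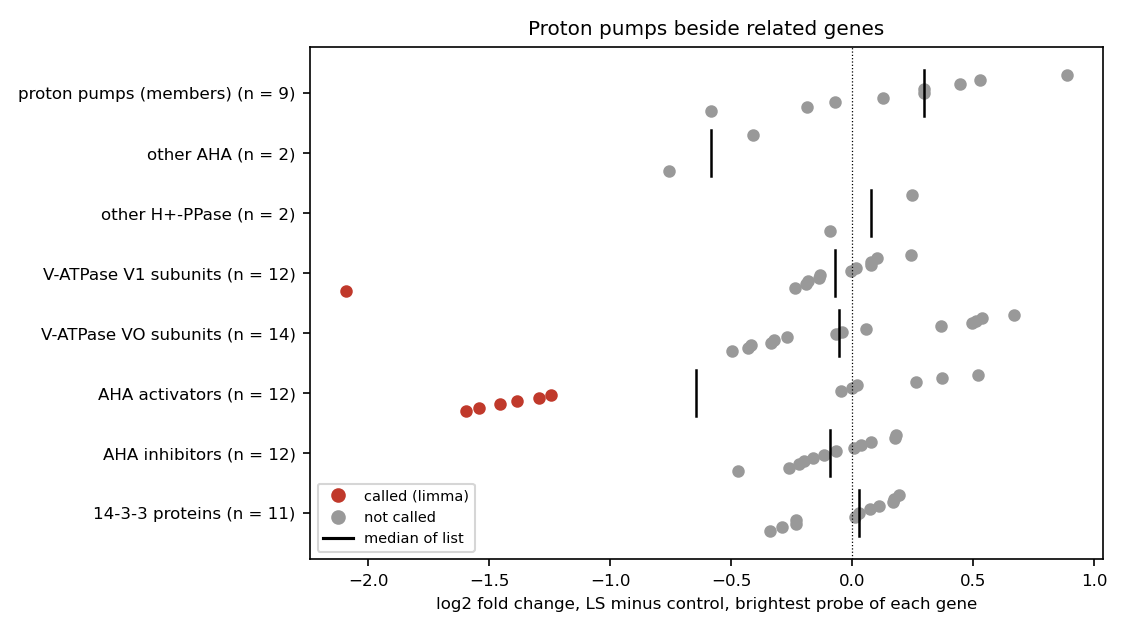
Change of each tested gene at its brightest probe (x axis, log2, LS minus control) for the pumps and 7 lists of related genes (y axis, n tested genes), with called genes in red and the median of each list as a black line. The 7 called genes are VHA-G3 and SAUR19 to SAUR24, all below 0, and the pumps have 0.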

How the data were processed

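RNA of 3 control and 3 LS samples was measured on 6 arrays. The authors' scans were quantified with Agilent Feature Extraction 10.7.3.1, and the deposited processed signal is a background-subtracted intensity. A deposited table gives the ratio of that signal to the array's 75th percentile and served as an alternative, and the deposited background and outlier marks (0 or 1) were used as filters. Processed signals were taken as log2 minus each array's 75th percentile, spots of a probe were averaged, spots with outlier marks were set missing, and 32352 of 43603 probes were tested. Tests used limma 3.58.1 in R 4.3.3 on all 6 arrays. The labels do not say whether replicates came from separate cultures, so p-values measure the spread between these samples, which may be technical, and 3 arrays per group limit the precision. Each gene was read at its brightest tested probe, by the mean over all 6 arrays. Named were all 10 pumps with every probe, of each related list the called genes and both extremes, and the 3 genes most correlated with AHA2, AVP1 and VHA-A. Markers are named besides, and so are a few genes marked as picked by their values. Members and lists were chosen with earlier results of these data known. Of 101 listed loci, 101 were named in the TAIR10.1 RefSeq table. Coordinates are left out because the array was designed on an earlier annotation. The fit was tested on simulated arrays. Normalization, background, filters, test, thresholds, replicate and slide blocks, and left-out arrays were varied in 23 alternatives.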

Additional observations from a re-analysis of the deposited data

Results flagged for a closer look

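One signal lay outside the tested data. VHA-A probe A_84_P812218, named for transcript model 2, was well above background on LS array 3 only, at -5.63 on the log2 scale, and was not tested. On the other arrays, where it was not well above background, it read -7.42, -9.70 and -8.51 (control arrays 1 to 3) and -7.20 and -6.92 (LS arrays 1 and 2).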

How the results depend on the processing

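The count of called pumps stayed at 0 under all but 2 of the 23 alternatives: it was 1 higher, AHA7, with normexp on the median signal and with limma unadjusted. Left-out arrays gave 0 pumps. Related genes called (0 higher, 7 lower) became 1 higher, VHA-a1, with quantile normalization, the methods' t-test unadjusted, limma unadjusted, the deposited table and the mean of all probes, and became 4 lower with median centring and 0 lower with spike-in scaling, no filter, the adjusted t-test, the slide block and within slide 1. Left-out arrays gave 0 higher and 0 to 6 lower.

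Over all probes (840 higher, 792 lower) the counts were 135 and 107 with no filter, 1517 and 1632 with the t-test unadjusted, 1 and 0 adjusted, 2531 and 3295 with limma unadjusted, 24 and 83 with the slide block, 217 and 284 within slide 1, 48 to 756 and 20 to 654 with left-out arrays, 559 higher at a fold of 2 and 103 lower with spike-in scaling. The mean of all probes gives no probe count. With the replicate block the counts were 197 and 167, with 0 related genes lower. Arrays of the same number did not deviate together, with r of 0.03, -0.12 and -0.19, and pairs of different numbers ran from -0.13 to 0.20. Centring within groups of 3 ties these values to each other, so they cannot exclude a weak pairing.

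Spike-in scaling moved the median of all probes from -0.04 to 0.50 and the share of called probes that were higher from 51.5% to 89.5%. It turned AHA3 (0.47), AVP1 (0.36), AHA8 (0.13), AVPL2 (0.45), VHA-e2 (0.048), RALF1 (0.072), GRF2 (0.20), AHA1 probe A_84_P850076 (0.39) and AVP1 probe A_84_P21739 (0.46) above 0. It brought AHA5 to -0.041 from -0.58 and SAUR19 to SAUR24 to between -1.05 and -0.70, none of them called. Relative to the median of all probes, AHA7 was at 0.93 and AHA5 at -0.54 under both scalings. Both scalings shift each whole array by a constant, so these values match by construction and do not test the scaling. AVP1 was also above 0 with quantile normalization (0.020), the slide block and within slide 1 (0.25 in both) and the mean of probes (0.085), as was its probe A_84_P21739 (0.15, 0.14 and 0.14 in the first 3). With left-out arrays the changes ran from -0.36 to 0.093 for AHA3, -0.41 to 0.23 for AVP1, -0.92 to 0.070 for RALF1, -0.20 to 0.018 for A_84_P21739, -0.10 to 0.96 for A_84_P793251 and -0.066 to 1.26 for A_84_P812222. The cause was not tested. The 6 arrays limit every value, and 1 pump of 10 was too dim to test.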
